A study of Homo sapiens with 6 samples.

Results

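The 34 genes described here encode iron-dependent demethylases of histones, DNA and RNA together with close relatives in the same enzyme class, the Fe(II)/2-oxoglutarate oxygenases. They were chosen as a list of symbols and matched to the Ensembl identifiers of the deposited tables, which hold 60609 genes, of which 20725 had enough counts to be tested. All 34 were found, and all 34 were among the genes tested. Their mRNAs were measured in OCI-AML5, an established human acute myeloid leukemia line grown with serum and the cytokine GM-CSF, in 3 libraries after 24 hours of S767 at 1 μM and in 3 libraries after the solvent, DMSO. S767 is a compound known by its code name. Both groups are the same line, with no genetic change between them, so the comparison is between compound and solvent at a single dose and a single time. The labels number the libraries 1 to 3 in each group and do not say what a number shares, so P values measure the spread between these libraries.

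These enzymes hold an iron atom at the active site and use oxygen and 2-oxoglutarate, an intermediate of the citric acid cycle, to oxidize a methyl group or another carbon of the substrate, which releases succinate and carbon dioxide. When the oxidized group is an N-methyl group it falls off as formaldehyde, which is how the Jumonji (JmjC) lysine demethylases clear methyl marks from histones and how FTO and several AlkB homologs clear them from RNA or DNA. The TET proteins oxidize 5-methylcytosine in DNA, and *TET2* is among the genes most often mutated in myeloid malignancies. The list also has members that are hydroxylases and not demethylases by their main known activity, among them *HIF1AN*, *P4HTM*, *OGFOD1*, *JMJD6*, *RIOX1* and *RIOX2*.

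RefSeq promoter windows of 300 bases, from 250 before to 50 after a transcription start on GRCh38.p14, were at hand for 31 of the 34 genes, 47 windows in all. There was no entry for *JMJD6*, *RIOX1* and *RIOX2*. Of the 47 windows, 3 are printed, because they belong to the gene with the lowest fold change, a paralog whose fold change had the opposite sign, and the gene with the highest fold change. They are *KDM4B* at chr19:4968863-4969162, *KDM4C* at chr9:6757723-6758022 and the first start of *TET1* at chr10:68560087-68560386, all on the forward strand. Capitals mark the letters ACGTG read on either strand, the core that hypoxia-inducible factors bind, so that CACGTG is a match on both strands.
KDM4B: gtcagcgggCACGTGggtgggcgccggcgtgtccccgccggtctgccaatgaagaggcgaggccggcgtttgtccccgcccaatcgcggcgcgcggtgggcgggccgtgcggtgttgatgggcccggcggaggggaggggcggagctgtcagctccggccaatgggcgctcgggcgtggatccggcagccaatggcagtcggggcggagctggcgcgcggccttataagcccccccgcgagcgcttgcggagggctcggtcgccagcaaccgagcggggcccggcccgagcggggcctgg
KDM4C: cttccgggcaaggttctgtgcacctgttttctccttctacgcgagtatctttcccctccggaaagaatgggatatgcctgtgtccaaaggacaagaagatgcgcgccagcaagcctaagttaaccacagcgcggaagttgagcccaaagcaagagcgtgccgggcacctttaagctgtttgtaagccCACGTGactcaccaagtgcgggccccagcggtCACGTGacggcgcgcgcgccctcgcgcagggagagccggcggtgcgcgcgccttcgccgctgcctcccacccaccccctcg
TET1: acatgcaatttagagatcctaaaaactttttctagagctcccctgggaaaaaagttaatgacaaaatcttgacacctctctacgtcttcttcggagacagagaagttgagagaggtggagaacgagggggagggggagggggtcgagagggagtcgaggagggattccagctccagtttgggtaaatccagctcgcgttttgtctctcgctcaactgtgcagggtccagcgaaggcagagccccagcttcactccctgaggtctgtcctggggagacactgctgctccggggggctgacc

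The *KDM4B* window held 2 such matches, from 1 stretch of CACGTG near its upstream end, and the *KDM4C* window held 4, from 2 stretches. The *TET1* window held 0. ACGTG was present in 21.3% of the 47 windows and in 21.4% of all 35116 windows of the same length. Letters of the metal response element were searched on both strands. TGCACNC was in 12.8% of the 47 windows and in 12.1% of all windows, and TGCGCNC was in 27.7% (13 of 47) and in 19.97% of all windows, a difference that was not tested. The windows of these genes were rich in CG dinucleotides, with a median of 22 per window against 14 over all windows. *KDM4B* had 43, *KDM4C* had 29 and the first start of *TET1* had 10. A match is a run of letters and not a measured binding site, and these letters and windows were chosen after the values below had been seen.

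The gene counts of a library summed to 149994700 at the least and 258029564 at the most, so counting error was small for genes of moderate level. The myeloid identity of the cells was checked on 10 markers, which summed to 572.2 to 628.5 TPM (a level scaled for gene length and for the library) in DMSO and 568.2 to 638.5 in S767, with *KIT* the only one under 1 TPM. *CSF2RA* had 0 gene counts in all 6 libraries, although RSEM gave it a mean of 3.33 TPM. In the edgeR fit blocked by replicate number, described below, 2 of the 9 markers tested passed an adjusted p of 0.05, where 3.23% of all genes tested did. They were *CD33*, higher in S767 by 0.11 on the log2 scale (adjusted p = 0.0241), and *CSF3R*, higher by 0.13 (adjusted p = 0.0163). At an unadjusted P under 0.05 the same fit counted these 2 higher, next to 9.38% of all genes tested, and 2 lower, next to 7.39%. The lower ones were *CEBPA* and *MPO*, each with a log2 fold change of -0.07. All 12 markers of T, B, erythroid, epithelial, stromal and endothelial cells were under 1 TPM, and *CD3E*, *KRT19* and *CDH5* had no gene counts. Transcripts of the mitochondrial genome took 4.74, 5.56 and 5.07% of the gene counts in DMSO libraries 1 to 3 and 5.09, 6.03 and 5.22% in S767 libraries 1 to 3. That share was higher in S767 within each number, and its part in the results below was not tested. In RNA from whole cultures, less RNA of a gene per cell and fewer cells that hold it cannot be told apart.

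The genes covered a wide range of levels. Over the 6 libraries 28 of the 34 averaged more than 10 TPM and only *TET1* averaged less than 1 TPM. *KDM2B* was highest at a mean of 76.4 TPM, followed by *KDM3B* at 61.7, *OGFOD1* at 58.5, *ALKBH5* at 55.6 and *KDM2A* at 46.2. The lowest were *ALKBH8* at 4.42, *KDM8* at 3.35, *KDM7A* at 3.08 and *TET1* at 0.185 TPM. Most genes next to each other in this order could not be separated. Of 33 neighboring pairs, 10 had ranges over the 6 libraries that did not overlap. These lay at the top, where *KDM2B* was above *KDM3B* and *KDM3B* above *OGFOD1*, and at the bottom, where *KDM6B* was above *ALKBH8*, *ALKBH8* above *KDM8*, and *KDM7A* above *TET1*. The other 5 were *ALKBH5* above *KDM2A*, *FTO* above *RIOX2*, *PHF2* above *KDM4A*, *ALKBH4* above *ALKBH1* and *KDM6A* above *TET2*.

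**Figure D1:**
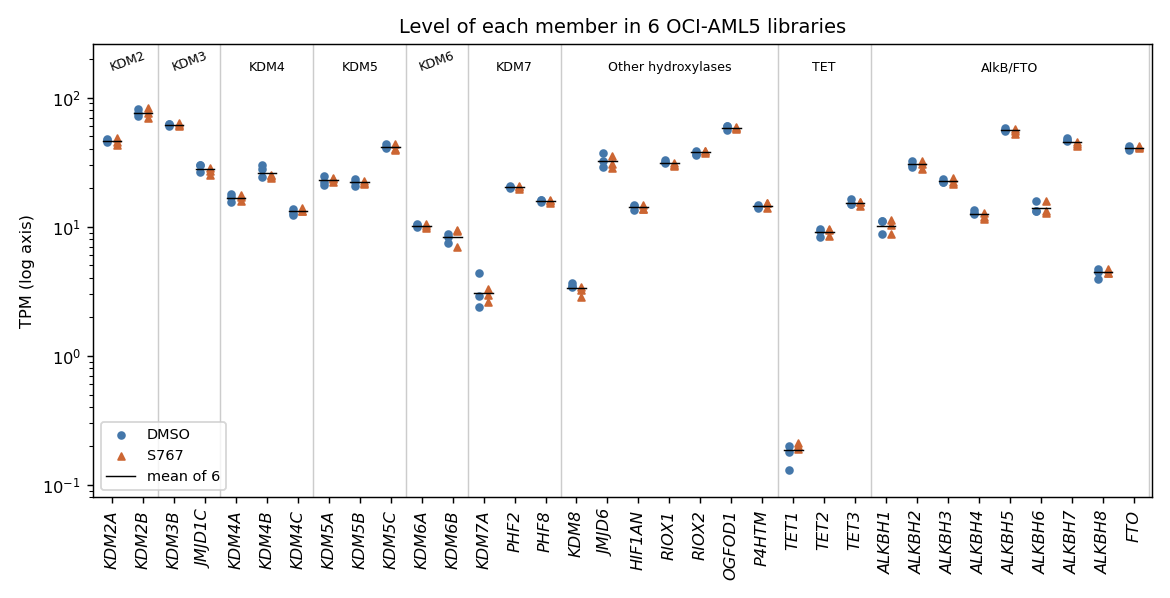
Level of each of the 34 genes in TPM on a log axis, ordered by subgroup, with 1 point for each of the 3 DMSO and 3 S767 libraries and a bar at the mean of the 6. 28 genes averaged over 10 TPM, *TET1* lay at 0.185 TPM, and the treatments lay on top of each other for most genes.

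The question of the comparison was whether 24 hours of S767 changed the mRNA of these enzymes. None of the 34 passed an adjusted p of 0.05 in the quasi-likelihood test of edgeR, where 0.00483% of all genes tested did (1 gene). At an unadjusted P under 0.05 the count was also 0 of 34, against 3.53% of all genes tested (2.03% higher in S767 and 1.51% lower). The adjusted p of edgeR was 1.00 for each of the 34 genes. Limma-voom and DESeq2 gave 0 of 34 at an adjusted p under 0.05 as well, where 0.00483% and 0.13% of all genes tested passed. The 34 log2 fold changes had a median of 0.00095, and those of all genes tested had a median of -0.00024. They ranged from -0.15 for *KDM4B* to 0.30 for *TET1*, and 17 of 34 were above 0, next to 49.8% of all genes tested.

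The absence of a call came with narrow limits for most of these genes. The median standard error of the log2 fold change was 0.05, against 0.12 over all genes tested. The 95% interval lay within -0.4 to 0.4 on the log2 scale for 31 of the 34, a limit met by 53.9% of all genes tested. It did not for *TET1* (-0.07 to 0.68), *KDM7A* (-0.43 to 0.20) and *ALKBH6* (-0.44 to 0.53). Within -0.2 to 0.2 the intervals of 22 genes were contained, against 31.5% of all genes tested. The fold change itself lay within -0.1 to 0.1 for 31 genes, against 61.4%. Here and with the block below, the genes tested were not matched for level to the 34, of which 28 averaged more than 10 TPM. The part of level in these narrow limits was not tested.

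Libraries with the same number deviated together, and a fit with the number as a block had smaller errors. Its median standard error was 0.03 for these genes and 0.06 for all genes tested. It again gave 0 of 34 at an adjusted p under 0.05, whereas 3.23% of all genes tested passed. At an unadjusted P under 0.05 it counted 7 of the 34 (20.6%), next to 16.8% of all genes tested. These were *KDM4C* and *TET1*, higher in S767, and *KDM4B*, *KDM6B*, *KDM7A*, *ALKBH4* and *ALKBH7*, lower. By direction this was 5.88% of the 34 higher against a background of 9.38%, and 14.7% lower against 7.39%. With the block, 33 of the 34 intervals lay within -0.4 to 0.4, against 62.9% of all genes tested, and the exception was again *TET1* (0.08 to 0.57).

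**Figure D2:**
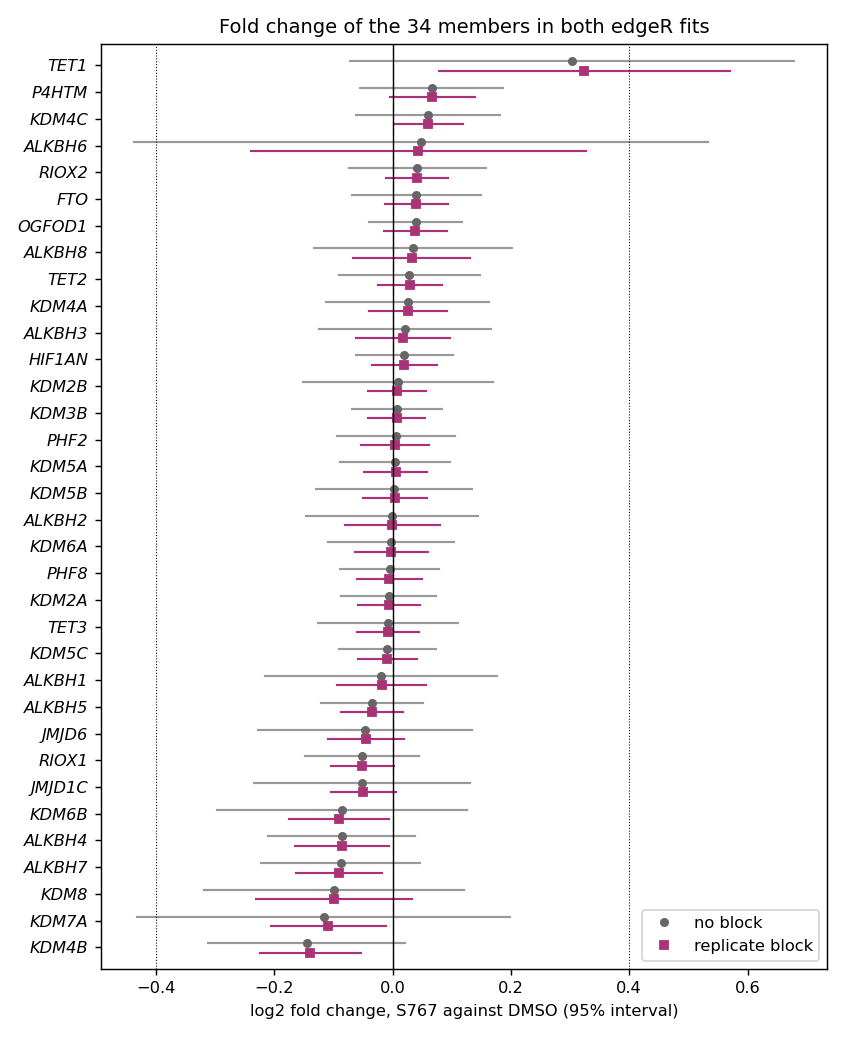
Log2 fold change of S767 against DMSO with its 95% interval for each of the 34 genes, in the edgeR fit without a block (grey circles) and blocked by replicate number (purple squares), with dotted lines at -0.4 and 0.4. 31 of 34 intervals without the block and 33 of 34 with it lay between the dotted lines, and *TET1* extended past 0.4 in both.

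The KDM2 enzymes remove methyl groups from lysine 36 of histone H3, and KDM2B also brings a Polycomb complex to unmethylated CpG islands through its CXXC zinc finger. *KDM2B* (chr12:121429097-121581015) was counted at 190.9, 207.0 and 179.4 CPM (counts scaled to the normalized size of the library) in DMSO libraries 1 to 3 and at 189.3, 211.5 and 180.2 CPM in S767 libraries 1 to 3. Library 2 was the highest and library 3 the lowest in both groups, and the groups overlapped. The log2 fold change of *KDM2B* was 0.01 (SE 0.07), and its level was 76.4 ± 5.13 TPM in DMSO (SD, n = 3, as for all levels that follow) and 76.3 ± 6.21 in S767. *KDM2A*, its paralog, was at 46.6 ± 1.41 TPM in DMSO and 45.8 ± 2.75 in S767, with a log2 fold change of -0.01 (SE 0.04).

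The KDM3 family acts on mono- and dimethylated lysine 9 of histone H3, a mark of silent chromatin. *KDM3B* varied little, at 239.2, 243.6 and 244.7 CPM in DMSO and 241, 245.9 and 244 in S767, with a log2 fold change of 0.01 (SE 0.03). Its level was 61.7 ± 1.05 TPM in DMSO and 61.6 ± 1.28 in S767. *JMJD1C*, a family member known for a role in the survival of leukemia cells, was at 28.9 ± 2.12 TPM in DMSO and 26.8 ± 1.65 in S767. It had a log2 fold change of -0.05 (SE 0.08), and 91.6% of its variation between libraries followed the replicate number. The fold change was 0.02 when DMSO library 3 was left out and -0.13 when DMSO library 1 was left out, both on the log2 scale.

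The KDM4 family clears trimethylation from lysines 9 and 36 of histone H3. *KDM4B* (chr19:4969113-5153595), which is also known as a gene induced by low oxygen, was counted at 101.3, 126.6 and 115.1 CPM in DMSO and at 102.5, 106.3 and 101.4 CPM in S767. DMSO library 1 lay just below the 3 S767 libraries, and the other DMSO libraries lay above all 3 of them. The log2 fold change was -0.15 (SE 0.07, edgeR). With the block it was -0.14 (SE 0.04, adjusted p = 0.0786), the lowest adjusted p of the 34 genes.

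The *KDM4B* difference depended on which libraries were compared. Within number 1 the log2 ratio was 0.02, within number 2 it was -0.25 and within number 3 it was -0.18. Without the libraries numbered 1, the blocked edgeR fit gave -0.22 with an adjusted p of 2.39e-09. Without those numbered 2 it gave -0.09 with an adjusted p of 0.639, and without those numbered 3 it gave -0.12 with an adjusted p of 0.0342. A fit on 2 pairs has a single residual degree of freedom per gene and draws most of its spread from other genes. Over all 26 alternatives the fold change of *KDM4B* stayed below 0, from -0.22 to -0.07. In TPM its level was 27.4 ± 2.79 in DMSO and 24.5 ± 0.739 in S767.

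*KDM4C* (chr9:6720863-7175648) was at 37.2, 41.2 and 38.9 CPM in DMSO and at 38.9, 42.1 and 41.3 CPM in S767. It was higher in S767 within each number, but the groups overlapped. Its log2 fold change was 0.06 (SE 0.05), and with the block it was 0.06 (SE 0.03, adjusted p = 0.278, edgeR). Its level was 13.0 ± 0.653 TPM in DMSO and 13.4 ± 0.384 in S767. *KDM4A*, another paralog, was at 16.8 ± 1.14 TPM in DMSO and 16.8 ± 0.946 in S767, with a log2 fold change of 0.03 (SE 0.06).

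The KDM5 enzymes remove methyl groups from lysine 4 of histone H3, a mark of active promoters. *KDM5C*, the highest of them and encoded on the X chromosome, was at 155.9, 151.9 and 155.9 CPM in DMSO and 157.5, 150.2 and 153.1 CPM in S767. The groups overlapped, with a log2 fold change of -0.01 (SE 0.04). Its level was 41.9 ± 1.51 TPM in DMSO and 41.0 ± 2.67 in S767. *KDM5A* was at 22.6 ± 1.90 TPM in DMSO and 23.1 ± 0.691 in S767. *KDM5B* was at 22.0 ± 1.33 and 22.0 ± 0.649 TPM in DMSO and S767. Both had log2 fold changes of 0.00 (SE 0.04 for *KDM5A* and 0.06 for *KDM5B*).

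KDM6A (UTX) and KDM6B (JMJD3) remove the Polycomb mark, trimethylation of lysine 27 of histone H3. *KDM6A* was at 36.1, 35.3 and 37.3 CPM in DMSO and 37.2, 34.7 and 36.5 CPM in S767, with a log2 fold change of 0.00 (SE 0.05). Its level was 10.3 ± 0.222 TPM in DMSO and 10.1 ± 0.290 in S767. *KDM6B*, which is inducible in activated myeloid cells, was at 33.3, 29.7 and 32.1 CPM in DMSO and 34.3, 26.3 and 29.1 CPM in S767. The S767 libraries held both the highest and the lowest values. The log2 fold change was -0.09 (SE 0.09), and with the block -0.09 (SE 0.04, adjusted p = 0.262, edgeR). Without the block it was -0.20 when S767 library 1 was left out. In TPM the means were the other way round, with 8.22 ± 0.639 in DMSO and 8.52 ± 1.38 in S767.

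The KDM7 group reads trimethylated lysine 4 of histone H3 through a PHD finger and demethylates other lysines such as lysine 9. *PHF2*, the highest of the group, was at 73.1, 73.5 and 71.0 CPM in DMSO and 70.8, 76.7 and 70.9 CPM in S767, and its log2 fold change was 0.01 (SE 0.04). Its level was 20.2 ± 0.311 TPM in DMSO and 20.2 ± 0.659 in S767. *PHF8* was at 15.9 ± 0.279 TPM in DMSO and 15.7 ± 0.450 in S767. Neither differed between the groups beyond the spread of its libraries. *KDM7A* was at 19.5, 17.2 and 24.8 CPM in DMSO and 19.7, 16.2 and 20.8 CPM in S767. Library 3 was the highest and library 2 the lowest in both groups. Its log2 fold change was -0.12 (SE 0.14), and with the block -0.11 (SE 0.04, adjusted p = 0.235, edgeR). The direction of *KDM7A* without the block rested on DMSO library 3, since it was 0.04 without that library and -0.23 without DMSO library 2. Its level was 3.22 ± 1.05 TPM in DMSO and 2.95 ± 0.340 in S767.

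Among the JmjC hydroxylases and other hydroxylases, *OGFOD1*, which hydroxylates a proline of a ribosomal protein, was the highest. It was counted at 75.9, 74.9 and 76.7 CPM in DMSO and at 77.4, 79.1 and 77.2 CPM in S767. All 3 S767 libraries lay above all 3 DMSO libraries, though by little, with a log2 fold change of 0.04 (SE 0.03, edgeR). In TPM it was 58.7 ± 2.08 in DMSO and 58.2 ± 1.38 in S767, where the order of the means was reversed. *P4HTM*, a membrane-bound prolyl hydroxylase, was at 21.1, 20.6 and 19.7 CPM in DMSO and 22.2, 20.8 and 21.3 CPM in S767. The groups overlapped, with a log2 fold change of 0.07 (SE 0.05), and its level was 14.2 ± 0.318 TPM in DMSO and 14.8 ± 0.687 in S767.

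*KDM8* (JMJD5), at 5.22, 4.68 and 5.25 CPM in DMSO and 4.66, 4.37 and 5.13 CPM in S767, was lower in S767 within each number. The groups overlapped, and the log2 fold change was -0.10 (SE 0.10, edgeR). It was -0.16 when S767 library 3 was left out and -0.05 when S767 library 2 was left out. Its level was 3.51 ± 0.104 TPM in DMSO and 3.18 ± 0.286 in S767. *HIF1AN* encodes FIH, which hydroxylates an asparagine of hypoxia-inducible factors and so limits their binding to coactivators. It was at 14.2 ± 0.682 TPM in DMSO and 14 ± 0.552 in S767. *JMJD6*, a lysyl hydroxylase of splicing proteins, was at 33.0 ± 4.11 TPM in DMSO and 31.6 ± 3.55 in S767. The ribosomal histidine hydroxylases *RIOX1* and *RIOX2* went opposite ways by small amounts. *RIOX1* was at 31.9 ± 0.781 TPM in DMSO and 30.2 ± 0.788 in S767, with a log2 fold change of -0.05 (SE 0.04). Its groups overlapped in CPM but not in TPM, with 31.38 the lowest in DMSO and 31.07 the highest in S767. *RIOX2* was at 37.0 ± 1.48 TPM in DMSO and 38.1 ± 0.745 in S767, with a log2 fold change of 0.04 (SE 0.05).

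Of the TET dioxygenases, *TET3* was the highest, at 133.8, 147.2 and 135.1 CPM in DMSO and 137.0, 144.9 and 131.9 CPM in S767. *TET3* had a log2 fold change of -0.01 (SE 0.05), and its level was 15.4 ± 0.719 TPM in DMSO and 15.1 ± 0.696 in S767. *TET2* was at 9.08 ± 0.646 TPM in DMSO and 9.16 ± 0.558 in S767, with a log2 fold change of 0.03 (SE 0.05). *TET1* was close to silent. It was at 1.01, 1.53 and 1.42 CPM in DMSO and at 1.58, 1.59 and 1.71 CPM in S767, or 221 to 377 counts per library. All 3 S767 libraries lay above all 3 DMSO libraries, but S767 library 1 and DMSO library 2 were nearly level, and DMSO library 1 stood below the rest.

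The log2 fold change of *TET1* (chr10:68560656-68694482) was 0.30 (SE 0.16, edgeR), the highest of the 34 genes and with one of the widest intervals. With the block it was 0.32 (SE 0.11, adjusted p = 0.16). Within numbers 1, 2 and 3 the log2 ratio was 0.64, 0.05 and 0.27, so number 1 had the largest of the 3. Without the libraries numbered 1 the blocked fit gave 0.17 with an adjusted p of 0.474. In TPM the level was 0.170 ± 0.0361 in DMSO and 0.20 ± 0.010 in S767. There the groups overlapped, with DMSO library 2 at 0.20 and S767 library 2 at 0.19.

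The AlkB homologs and FTO act on nucleic acids for the most part, and ALKBH5 and FTO remove N6-methyladenosine from RNA. *ALKBH5*, the highest of them, was at 136.9, 132.1 and 129.4 CPM in DMSO and 131.9, 126.9 and 130.1 CPM in S767. The groups overlapped, with a log2 fold change of -0.04 (SE 0.04). Its level was 56.4 ± 1.31 TPM in DMSO and 54.8 ± 2.41 in S767. *FTO*, a demethylase with a described role in acute myeloid leukemia, was at 40.7 ± 1.53 TPM in DMSO and 41.2 ± 0.805 in S767. *FTO* had a log2 fold change of 0.04 (SE 0.05), and the log2 ratio was 0.04 within each number.

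*ALKBH4* was at 17.1, 18.0 and 17.1 CPM in DMSO and 16.8, 16.3 and 16.1 CPM in S767. All 3 S767 libraries lay below all 3 DMSO libraries in CPM. In TPM the groups overlapped, with S767 library 1 at 12.74 and DMSO libraries 1 and 3 at 12.62 and 12.73. The log2 fold change was -0.09 (SE 0.05), and with the block -0.09 (SE 0.04, adjusted p = 0.264, edgeR). Its level was 12.9 ± 0.422 TPM in DMSO and 12.0 ± 0.660 in S767. *ALKBH7*, a mitochondrial member linked to programmed necrosis, was at 27.8, 29 and 27.4 CPM in DMSO and 24.7, 28.2 and 26.4 CPM in S767. It was lower in S767 within each number, and the groups overlapped in CPM. Its log2 fold change was -0.09 (SE 0.06), and with the block -0.09 (SE 0.03, adjusted p = 0.181, edgeR). Without the block it was -0.14 when S767 library 2 was left out and -0.04 when S767 library 1 was left out. In TPM *ALKBH7* was at 47.0 ± 1.3 in DMSO and 43.6 ± 1.61 in S767. There the groups did not overlap, with 45.8 the lowest in DMSO and 45.13 the highest in S767.

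The DNA repair enzymes *ALKBH2* and *ALKBH3*, which undo alkylation damage, showed no difference beyond their spread. *ALKBH2* was at 30.3 ± 1.74 TPM in DMSO and 30.3 ± 2.13 in S767. *ALKBH3* was at 22.6 ± 0.615 TPM in DMSO and 22.4 ± 1.2 in S767. The tRNA-modifying enzymes were at lower levels. *ALKBH1* was at 10.3 ± 1.31 TPM in DMSO and 10.1 ± 1.18 in S767, and *ALKBH8* was at 4.34 ± 0.361 TPM in DMSO and 4.49 ± 0.189 in S767. *ALKBH6*, at 14.1 ± 1.48 TPM in DMSO and 14 ± 1.59 in S767, is described further with the counting.

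Read gene by gene without the model, the groups overlapped for most genes. Overlap and the permutation test take no account of the replicate number, so overlapping groups can hide a shift within each number. In CPM, the groups did not overlap for 3 of the 34 genes (8.82%), against 9.21% of all genes tested. *TET1* and *OGFOD1* were higher, where 5.12% of all genes tested were, and *ALKBH4* was lower, where 4.08% were. Each had an exact two-sided permutation p of 0.1, the smallest that 3 libraries against 3 allow. The direction was the same within all 3 numbers for 11 genes (32.4%), against 37.8% of all genes tested. Of these, 7 were higher, next to 19.9% of all genes tested, and 4 were lower, next to 17.8%. The 4 lower ones were *KDM8*, *RIOX1*, *ALKBH4* and *ALKBH7*.

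The replicate number carried most of the variation, though it takes more values than treatment and would hold a larger share even without effects. It accounted for more than 50% of the variation in log2 CPM for 25 of the 34 genes (73.5%), against 62.3% of all genes tested, with a median of 75.1% for these genes and 62.8% for all. It reached 98.9% for *KDM2B*, and 97.6% for *ALKBH1*. Treatment accounted for more than 50% in 2 genes (5.88%), *OGFOD1* at 63.9% and *ALKBH4* at 63.8%, against 10.7% of all genes tested, with a median of 6.36% for these genes and 10.2% for all. Without the libraries numbered 1, 4 of the 34 genes had an adjusted p under 0.05 in the blocked edgeR fit, all lower in S767, and 9.62% of all genes tested did, so that the count was near the background of the same fit. They were *KDM4B*, *KDM6B* (adjusted p = 0.00082), *KDM7A* (0.00187) and *JMJD1C* (0.0443), and they were grouped after their values were seen. Leaving out number 1 leaves the numbers within which each of them was lower, and within number 1 itself none of the 4 was lower in S767.

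The gene counts and the RSEM estimates, which divide shared fragments between genes, gave like totals for most of these genes, with gene counts at a median of 105% of the RSEM expected counts. For 2 genes (5.88%) they were under 50%, as for 4.57% of all genes compared. *ALKBH6* (chr19:36009120-36014239) kept 10.8%, and 5116 bases of it are shared with *AC002116.1*, annotated on the same strand. *KDM4A* (chr1:43650158-43705515) kept 45.7%, and 55358 bases of it are shared with *AL451062.3*, also on the same strand. For these 2 genes CPM and TPM rest on different numbers of fragments, and which gene the shared fragments came from was not tested. *ALKBH6*, shown by library because of this and so chosen after its values were seen, was at 15.8, 13.2 and 13.3 TPM in DMSO and 15.8, 12.8 and 13.3 TPM in S767. On RSEM counts with the block its log2 fold change was -0.02 (SE 0.05, edgeR). *HIF1AN* overlaps *NDUFB8* and *AL133352.1* on the opposite strand, and its forward-strand counts were 65.9% of the reverse-strand counts used here.

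**Figure D3:**
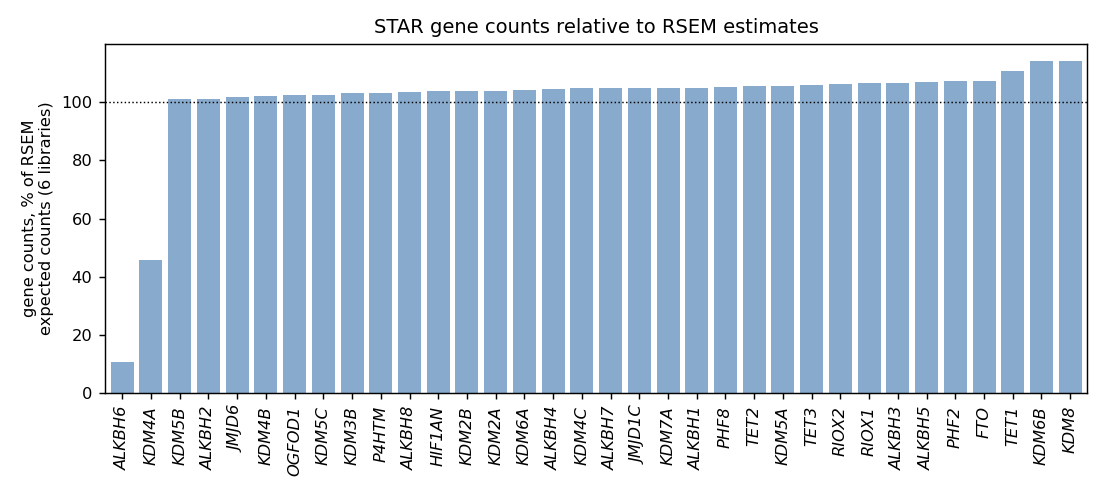
Gene counts as a percentage of RSEM expected counts, summed over the 6 libraries, for each of the 34 genes, with a dotted line at 100%. *ALKBH6* at 10.8% and *KDM4A* at 45.7% stand apart, and the highest is at 114%.

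Other enzymes that share the chemistry were looked at beside these genes. Of 30 further 2-oxoglutarate oxygenases, 27 were tested, 0 passed an adjusted p of 0.05 without the block, and 3 had an unadjusted P under 0.05, all lower in S767, where 3.53% of all genes tested did in either direction and 1.51% were lower. With the block 3 passed an adjusted p of 0.05, 1 higher and 2 lower, where 3.23% of all genes tested passed. *KDM3A*, the hypoxia-inducible paralog of *KDM3B*, was at 59.5, 77.0 and 71.8 CPM in DMSO and 57.2, 59.7 and 59.6 CPM in S767. S767 libraries 2 and 3 were just above DMSO library 1, and the other DMSO libraries lay higher. The log2 fold change of *KDM3A* was -0.24 (SE 0.08), and with the block -0.23 (SE 0.04, adjusted p = 0.0156, edgeR). Among the collagen lysyl hydroxylases, *PLOD1* was lower (-0.23, SE 0.05, adjusted p = 0.0226) and *PLOD3* higher (0.12, SE 0.02, adjusted p = 0.0259), both in the blocked edgeR fit. *PLOD3* was named after its values were seen, as the only one of the 3 that was higher.

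*EGLN3*, a prolyl hydroxylase that marks hypoxia-inducible factors for degradation, was rare, with a mean of 0.371 CPM in DMSO and 0.225 in S767. Its log2 fold change was -0.71 (SE 0.23), and with the block the adjusted p was 0.0947 (edgeR). *P4HA1*, a subunit of the collagen prolyl hydroxylase, had a log2 fold change of -0.24 (SE 0.10), and with the block the adjusted p was 0.121. The median over the 27 genes was -0.02. The 3 flavin-dependent genes, *KDM1A*, *KDM1B* and the partner *RCOR1*, are given as the whole of a short list, whatever their P. The enzymes among them use another cofactor for histone demethylation. At an adjusted p under 0.05, 0 of 3 passed in either edgeR fit, with a median log2 fold change of 0.01. Of all genes tested, 0.00483% passed without the block and 3.23% with it. At an unadjusted P under 0.05 the blocked fit counted 1 of the 3, *KDM1B*, higher in S767, next to 9.38% of all genes tested. *KDM1B* had a log2 fold change of 0.09 in that fit (SE 0.03, adjusted p = 0.11, edgeR).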

How the data were processed

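Stranded poly(A) libraries were made by the authors from OCI-AML5 cells exposed to S767 or DMSO. Per the labels, reads were aligned with STAR (2.7.1a in the submitters' processing notes) to GRCh38 and quantified with RSEM (1.2.28); the annotation release is not given in the sources used here. The authors deposited, for each library, fragment counts per gene, unnormalized, with no regard to strand and for each strand, and RSEM gene tables with expected counts, estimated and so not always whole, lengths and TPM. The lines of each count file that name no gene (unmapped, multimapping, no feature, ambiguous) hold 20.3% of fragments and entered neither library sizes nor tests. Symbols were found for 60295 of 60609 identifiers, and positions come from GENCODE 29.

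Reverse-strand counts were normalized by TMM, filtered by filterByExpr (minimum count 10) and tested with glmQLFTest in edgeR 4.0.16 (R 4.3.3). P values were adjusted by Benjamini-Hochberg over all 20725 genes that entered. A standard error is the fold change on the log2 scale over the square root of F. CPM uses TMM library sizes. Exact permutation tests used log2 CPM (prior count 2). The share of variation is that of the sum of squares of log2 CPM.

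Replicate numbers pair the libraries. Over the 6191 genes whose mean log2 CPM exceeded 5, deviations from the group means correlated by 0.78, 0.87 and 0.75 for libraries of the same number and negatively otherwise, and at 0.53, 0.66 and 0.66 over the 34 genes. The pairing comes from these values. The results use no block, with the blocked fit as an alternative. RLE factors, DESeq2 1.42.0, limma-voom (limma 3.58.1), other limits on low counts, rounded RSEM expected counts, limma on log2 TPM and leaving out libraries were also tried.

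The genes and lists were chosen with earlier results of these data known. The lists were further 2-oxoglutarate oxygenases, flavin-dependent demethylases with a partner, and opposing methyltransferases with proteins that work with them. Readers and partners, genes linked to 2-oxoglutarate and related acids, and cell markers made up the rest. All 34 genes are given in TPM. CPM by library is given for the 17 with P under 0.05 in either fit, among the 3 largest or 3 smallest fold changes, or highest in their subgroup. Genes of other lists are named at P under 0.05, or adjusted p under 0.05 with the block, up to 4 a list by P, and exceptions are stated.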

Additional observations from a re-analysis of the deposited data

How the results depend on the processing

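Of 26 alternatives, 23 were planned and 3 were added after seeing the data. The number of the 34 genes with an adjusted p under 0.05 was 0 under every alternative but 3, all with the replicate block. It was 4 without the libraries numbered 1 (*KDM4B*, *KDM6B*, *KDM7A* and *JMJD1C*), where 9.62% of all genes tested passed, and 1 without those numbered 3 (*KDM4B*), where 2.98% did, and 0 without those numbered 2, where 0.121% did, a range of 0 to 4 over the blocked fits that leave out a pair. It was 2 (*KDM4B* and *TET1*) with the block and no limit on low counts, an added alternative that tests more genes and in which 3.82% of them passed. The cause was not tested.

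Numbers of genes with an unadjusted P under 0.05, which were 0 higher and 0 lower, moved with the replicate block to 2 higher and 5 lower in edgeR (16.8% of all genes tested in either direction), 2 and 4 in limma-voom (16.5%), 0 and 2 in DESeq2 (10.2%), 2 and 5 on RSEM expected counts (17.6%), 1 and 6 with library size alone (16.7%), 2 and 5 with no limit on low counts (11.6%) and 2 and 4 on counts without regard to strand (15.2%). The calls that the block added in the other lists at an adjusted p under 0.05 are those named with it. At an unadjusted P under 0.05 it added more genes in those lists, and not all of them are named. Without the block the counts were 0 and 1 with no limit on low counts (2.96%), on log2(TPM + 1) (5.12%) and on log2(TPM + 0.1) (5.20%). Leaving out a library gave 0 to 1 higher and 0 to 1 lower (2.46 to 4.83%), and leaving out a pair under the block gave 0 to 1 higher and 1 to 5 lower (9.08 to 20.8%). The median log2 fold change was -0.0155 on log2(TPM + 1) and -0.0165 on log2(TPM + 0.1), and ran from -0.0164 without DMSO library 2 to 0.0162 without DMSO library 3. The cause of these shifts was not tested. The sign of the fold change differed in at least 1 alternative for 23 of the 34 genes; *KDM4B* and *KDM4C* kept theirs, as did *TET1*, at 0.04 to 0.45. The lowest counts in a library were 112 for *ALKBH6*, whose gene counts are 10.8% of the RSEM estimate, and 221 for *TET1*. The part of depth in the precision of either gene was not tested.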

Other observations

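Genes that work against or beside these enzymes were looked at in 3 further lists, whose counts are given against those of all genes. Over all genes tested in edgeR, 0.00483% passed an adjusted p of 0.05 and 3.53% had an unadjusted P under 0.05 without the block, and 3.23% passed an adjusted p of 0.05 with it. The first list had 37 genes, methyltransferases of histones, DNA or RNA and proteins that work with them, such as *EED*, *SUZ12*, *UHRF1* and *WTAP*. Of these 37, 0 passed an adjusted p of 0.05 in edgeR without the block. At an unadjusted P under 0.05 there was 1 (higher), and 1 passed an adjusted p of 0.05 with the block. That was *DNMT3A*, a DNA methyltransferase often mutated in acute myeloid leukemia. It was at 65.4, 70.3 and 68.9 CPM in DMSO and 71.8, 76.4 and 73.0 CPM in S767, so that the groups did not overlap, with a log2 fold change of 0.11 (SE 0.04) and an adjusted p of 0.0278 with the block (edgeR). The list's median was -0.01.

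Of 19 readers and partners, 18 were tested. With the block 1 passed an adjusted p of 0.05, where 3.23% of all genes tested did. This was *ASCC3*, a helicase that works with ALKBH3 in alkylation repair. It was at 178.2, 190.4 and 181.1 CPM in DMSO and 197.5, 204.0 and 194.4 CPM in S767, above DMSO in every library. Its log2 fold change was 0.12 (SE 0.04), with an adjusted p of 0.0185 with the block (edgeR), while *ALKBH3* itself had a log2 fold change of 0.02 (SE 0.06).

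The last list had 27 genes linked to 2-oxoglutarate, succinate, fumarate or 2-hydroxyglutarate. Without the block in edgeR, 0 of these 27 had an unadjusted P under 0.05. Over all genes tested the share was 3.53%. With the block 1 of the 27 passed an adjusted p of 0.05, where 3.23% of all genes tested did. *IDH2*, the mitochondrial enzyme that makes 2-oxoglutarate from isocitrate, was at 208.2, 233.6 and 230.8 CPM in DMSO and 222.1, 266.8 and 257.6 CPM in S767. It was higher within each number, the groups overlapped, and the log2 fold change was 0.15 (SE 0.07), with an adjusted p of 0.00853 with the block.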
